A study of Homo sapiens with 4 samples.

Results

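A set of 36 assays for tissue-restricted miRNAs was described in U2OS, a human osteosarcoma line. These are miRNAs whose known home is muscle, nerve tissue, liver, blood, pancreas, gonad, or epithelium and eye. They were selected by name, from 26 miRNA names with any arm or copy suffix. The rule holds no measured value, but it was chosen with earlier results of these data known. The panels held 737 different miRNA assays in all, so the set made up 36 of 737. miR-208 with no letter is not analysed here, while miR-208a and miR-208b are. Of the 36 assays, 26 read a guide strand or an arm used as one and 10 read the opposite arm of the hairpin.

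Levels were measured by SYBR Green quantitative PCR in 4 RNA samples with 1 sample per group. All were U2OS, a single cell line. For shNS the cells had received a control shRNA by lentivirus, and for shDDX1 an shRNA against DDX1, a DEAD-box RNA helicase. Both were selected with puromycin at 2 µg/ml. The untreated sample and the NCS sample differ by neocarzinostatin (NCS), a DNA-cutting enediyne, given at 500 ng/ml for 6 h. The study's title asks about primary miRNA processing by DDX1, and the NCS pair adds DNA damage. With no replicate in any group, differences could not be set against replicate spread and no p-value was computed.

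A mature miRNA is cut from a hairpin whose 2 arms can both be loaded into a silencing complex, one usually far more than the other. Bases 2 to 8 of the loaded strand, the seed, choose its targets. Tissue-restricted miRNAs are switched on by lineage factors, and several lie in genes of that lineage. miR-208a, miR-208b and miR-499 sit in introns of myosin heavy chain genes, and miR-144 and miR-451 share an erythroid transcript. Bone-forming and osteosarcoma cells are of mesenchymal origin, so most of these miRNAs are not typical of them.

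The sequences below show which assays read near-identical molecules, the point that limits a comparison between family members. They include several members with large differences, but not miR-451, the lowest member after NCS. Mature sequences of 29 of the 36 assays were found in RefSeq with the GRCh38.p14 build. None was found for miR-124, miR-124*, miR-150, miR-383, miR-451, miR-486-3p and miR-486-5p. The seed, bases 2 to 8, is in capitals. The muscle miRNAs come first and are followed by the nerve, blood, liver and pancreas miRNAs.
miR-1: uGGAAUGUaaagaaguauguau
miR-206: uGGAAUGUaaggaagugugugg
miR-133a: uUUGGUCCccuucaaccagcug
miR-133b: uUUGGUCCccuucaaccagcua
miR-208a: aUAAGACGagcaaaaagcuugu
miR-208b: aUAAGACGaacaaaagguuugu
miR-499-5p: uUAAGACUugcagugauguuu
miR-499-3p: aACAUCACagcaagucugugcu
miR-9: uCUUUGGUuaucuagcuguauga
miR-219-5p: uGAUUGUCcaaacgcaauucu
miR-142-3p: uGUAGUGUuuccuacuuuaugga
miR-142-5p: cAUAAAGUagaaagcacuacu
miR-144: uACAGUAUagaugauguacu
miR-223*: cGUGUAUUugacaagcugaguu
miR-122: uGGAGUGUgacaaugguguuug
miR-216a: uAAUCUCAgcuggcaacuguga
miR-216b: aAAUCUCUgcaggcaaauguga
miR-217: uACUGCAUcaggaacugauugga

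Shared seeds were found in 3 pairs of members. miR-1 and miR-206 have the same seed and differ at 4 of 22 bases. miR-133a and miR-133b have the same seed and differ at 1 of 22. miR-208a and miR-208b have the same seed and differ at 3 of 22. miR-216a and miR-216b differ at 4 of 22 bases, 1 of them in the seed. How well each assay separates such pairs was not tested.

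Levels are given as the quantification cycle (Ct), where a lower Ct is a higher level and 1 cycle stands for 1 doubling. Ct under 35 was taken as quantified. The order of Ct between assays also depends on the efficiency of each assay, which was not measured here. In RNA from a whole culture, many cells with little of a miRNA and few cells with much of it cannot be told apart. Over all assays with a Ct in both samples, untreated cells read later than shNS by a median of 4.38 cycles, so levels were compared between the pairs only by rank.

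Most of the set read in the later part of each sample. In shNS 35 of 36 assays were under Ct 35, with a median Ct of 28.5. In shDDX1 it was 35 of 36, with a median of 29.1. In untreated cells 19 of 36 were under 35, with a median of 34.9, and 9 gave no Ct. In NCS-treated cells 26 of 36 were under 35, with a median of 33.5, and 4 gave no Ct. Over all 737 assays, the shares under 35 were 98.9%, 97.7%, 70.3% and 79.8% in the same order, against 97.2%, 97.2%, 52.8% and 72.2% of the set. The shares lay within 2 percentage points of each other in the shRNA pair, and that of the set was the lower one in every sample.

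The place of an assay in its sample was given as a percentile, the share of the 737 assays that read earlier, with undetermined wells placed last. In the order shNS, shDDX1, untreated, NCS, the median percentile of the set was 61.6, 61.7, 69.5 and 66.2. Guide strands alone gave 54.8, 56.4, 65.3 and 63.4. With the authors' deposited shifted Ct the set gave 52.2, 53.6, 53.2 and 46.5, which puts it ahead of the median assay in NCS-treated cells. In the NCS pair the shifted Ct gives numbers for undetermined wells, made in a way not stated. The rankings thus treat those wells differently. A comparison list of 21 broadly expressed or mesenchymal miRNAs, such as miR-21, miR-221 and let-7a, had median percentiles of 6.38, 8.68, 7.73 and 6.38. This list too was chosen with earlier results of these data known. All 21 read under Ct 30 in shNS and in shDDX1. In untreated cells 19 of 21 were under 35, the others being miR-30d at 39.7 and let-7f at 35.6. There let-7a read 32.5, at percentile 50.7, and miR-196a read 30.8, at percentile 35.1. Other tissue-restricted miRNAs outside the set also lay behind this list. For 9 pluripotency assays the medians were 64.7, 76.7, 93.3 and 70.3, and for 47 assays of the placental chromosome 19 cluster 55.6, 53.3, 48.7 and 53.6.

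**Figure D1:**
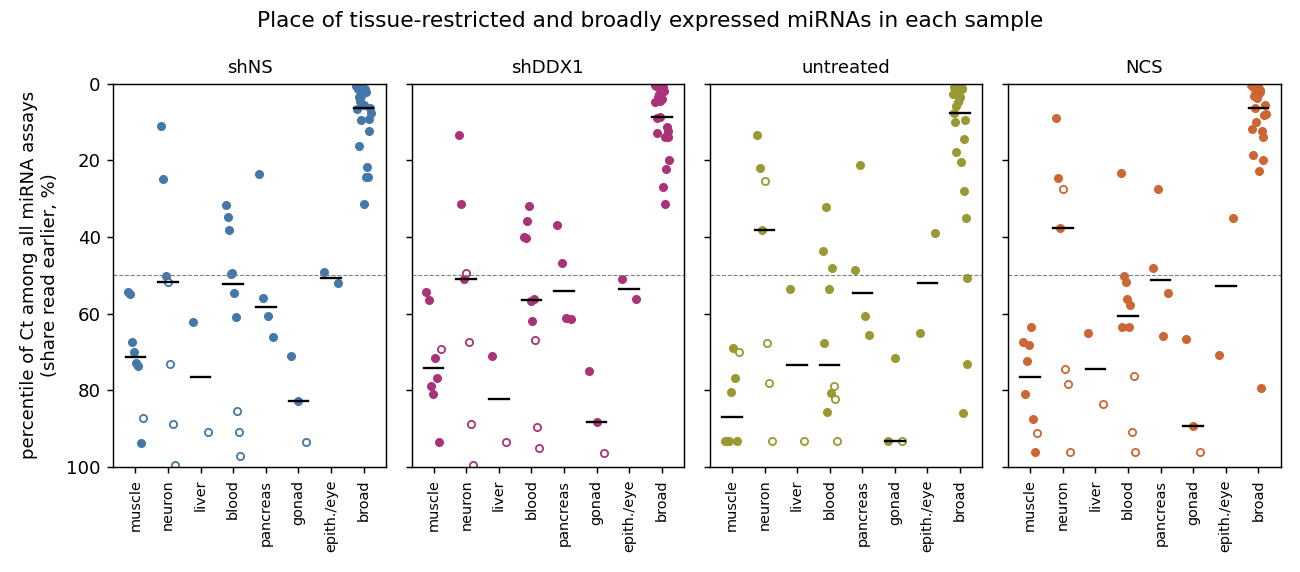
Percentile of Ct among 737 miRNA assays (vertical axis, 0 at the top is the earliest) for each tissue group and for 21 broadly expressed or mesenchymal miRNAs (broad), in each of the 4 samples; filled points are guide strands, open points opposite arms and bars medians. The broad list has medians between 6.38 and 8.68, while miR-9 is the top point of the nerve group in every sample.

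Panel position is part of this rank. The set had 26 assays on panel I and 10 on panel II. The 10 on panel II are miR-208a, miR-208b and 8 opposite arms. Ranked within panels, the medians were 72.3, 64.1, 69.1 and 72.0. On panel I the median percentile of the members over both panels was 54.5 in shNS, where all panel I assays had 34.5. On panel II it was 89.8, where all panel II assays had 64.2.

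Wells named as water blanks were used as a rough gauge of background signal. They were picked by name, and whether they hold primers was not checked. They may therefore not show the background of a miRNA assay. Of 9 such wells, a Ct was given for 6 in shNS, 7 in shDDX1 and 0 in the NCS pair. On panel I the earliest water well read 27.8 in shNS and 27.3 in shDDX1, and it was the only one of that panel with a Ct in either sample, so the next counts rest on 1 well. Of 26 members on that panel, 12 read earlier than this in shNS and 7 in shDDX1. The 7 were miR-9, miR-219-5p, miR-144, miR-451, miR-217, miR-142-3p and miR-142-5p. On panel II the earliest water well read 26.6 and 26.5, and 0 of 10 members read earlier in either sample. Against the earliest water well of either panel, 30 of 36 members were later in shNS and 33 in shDDX1, as were 452 and 485 of all 737 assays. The part of such background signal in the members' Ct was not tested.

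Muscle and heart miRNAs were among the latest. miR-1 and miR-206, which act in skeletal muscle differentiation, read Ct 27.8 and 27.8 in shNS and 28.4 and 28.5 in shDDX1. Neither gave a Ct in untreated cells, and after NCS they read 33.6 and 35.3. miR-133a, a miRNA made from the same transcripts as miR-1, read 29.6, 30.1, 34.9 and 33.2 in the 4 samples, taken in the same order. miR-133b, its near-identical relative from the miR-206 locus, read 29.2, 31.2, 37.6 and 33.6. The distance from miR-133a to miR-133b thus went from -0.3 cycles in shNS to 1.1, 2.7 and 0.4 in the other samples, though the molecules differ at 1 base. The 2.7 in untreated cells rests on a miR-133b reading past the limit of Ct 35.

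The myosin-gene miRNAs of heart and slow muscle followed. miR-208a read 32.7 in shNS and 33.0 in shDDX1 and gave no Ct in either sample of the NCS pair. miR-208b read 29.6, 30.8, 36.7 and 37.1. miR-499-5p read 28.98 and 31, gave no Ct in untreated cells and read 34.3 after NCS. Of the 8 muscle assays, 8 were under Ct 35 in either shRNA sample, 2 without NCS and 4 with it. Their median percentile was 71.4, 74.2, 86.9 and 76.6.

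The nerve group held the earliest member of the whole set. miR-9, a miRNA of neural progenitors that is also made in other cells, read Ct 22.6, 23.5, 27.5 and 25.3 in the same order of samples. Its percentiles of 11.1, 13.3, 13.3 and 8.96 made it the only member under percentile 25 in all 4 samples. Of the 21 broadly expressed or mesenchymal miRNAs, 6, 6, 8 and 8 read later than miR-9 in these samples. Its mature sequence is made from 3 genes, MIR9-1, MIR9-2 and MIR9-3, on chromosomes 1, 5 and 15, and the assay does not tell them apart.

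miR-219-5p, known from maturing oligodendrocytes, read 24.8, 26.2, 29.03 and 28.5, at percentiles 24.97, 31.3, 21.98 and 24.7. miR-124, the most abundant miRNA of neurons, read 27.5, 28.0, 31.3 and 30.4, at percentiles 50.1, 50.9, 38.3 and 37.6. miR-124* gave a Ct of 36.5 in shNS and 38.6 in shDDX1 and none in the NCS pair. miR-9, miR-219-5p and miR-124 kept this order in all 4 samples.

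miR-122, which dominates the miRNA pool of hepatocytes, read 28.6, 30.1, 32.8 and 33.4. It lay at percentiles 62.3, 71.1, 53.6 and 65.1, behind the median assay in each sample.

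Among blood miRNAs, miR-142-3p and miR-142-5p are the 2 arms of a hairpin active across blood lineages. miR-142-3p read 25.7, 27.1, 31.9 and 28.3, and miR-142-5p read 26.3, 27.1, 34.7 and 33.3. They lay within 1 cycle in the shRNA pair and further apart in the NCS pair, where their percentiles were 43.7 and 67.8 in untreated and 23.2 and 63.6 in NCS-treated cells. miR-144, of red blood cell precursors, read 27.5, 26.3, 39.7 and 31.8, at percentiles 49.8, 32.02, 85.8 and 51.7. miR-451, from the same transcript and matured without Dicer, read 26.5, 26.7, 30.5 and 31.6.

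miR-150, a lymphocyte miRNA, read 27.8, 29.1, 37.9 and 33.2. miR-223, a myeloid miRNA, read 28.4, 28.5, 32.2 and 32.5. miR-486-5p, of red blood cell precursors and muscle, read 27.5, 28.5, 32.8 and 32.4. The 5 blood guide strands other than miR-144 and miR-150 stayed under 35 in all 4 samples.

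In the pancreas group, the acinar miRNAs miR-216a, miR-216b and miR-217 lie in a row on chromosome 2, with 5978 bases between miR-217 and miR-216a and 11723 between miR-216a and miR-216b. miR-217 read 24.7, 26.8, 32.3 and 31.5. miR-216a read 28.9, 29.1, 34.5 and 32.2, and miR-216b read 28.4, 29.1, 33.8 and 33.5. miR-375, of islet cells, read 27.9, 27.6, 28.95 and 28.9. Its percentile moved from 56.0 and 46.8 in the shRNA pair to 21.2 and 27.5 in the NCS pair. miR-9* moved likewise, from 51.8 and 49.3 to 25.5 and 27.4. All 4 pancreas guide strands were under 35 in all 4 samples.

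The remaining guide strands were mostly late. miR-202, a gonad miRNA, read 30.8, 31.8, 35.3 and 37.9. miR-383, known from testis, read 29.3 and 30.5, gave no Ct in untreated cells and read 33.5 after NCS. miR-205, of stratified epithelium, read 27.7, 28.5, 31.5 and 29.96. miR-184, of cornea and lens, read 27.5, 28.0, 34.4 and 33.9. miR-205 was thus the earlier of these epithelial markers in the NCS pair, while in the shRNA pair they lay within 1 cycle of each other.

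**Figure D2:**
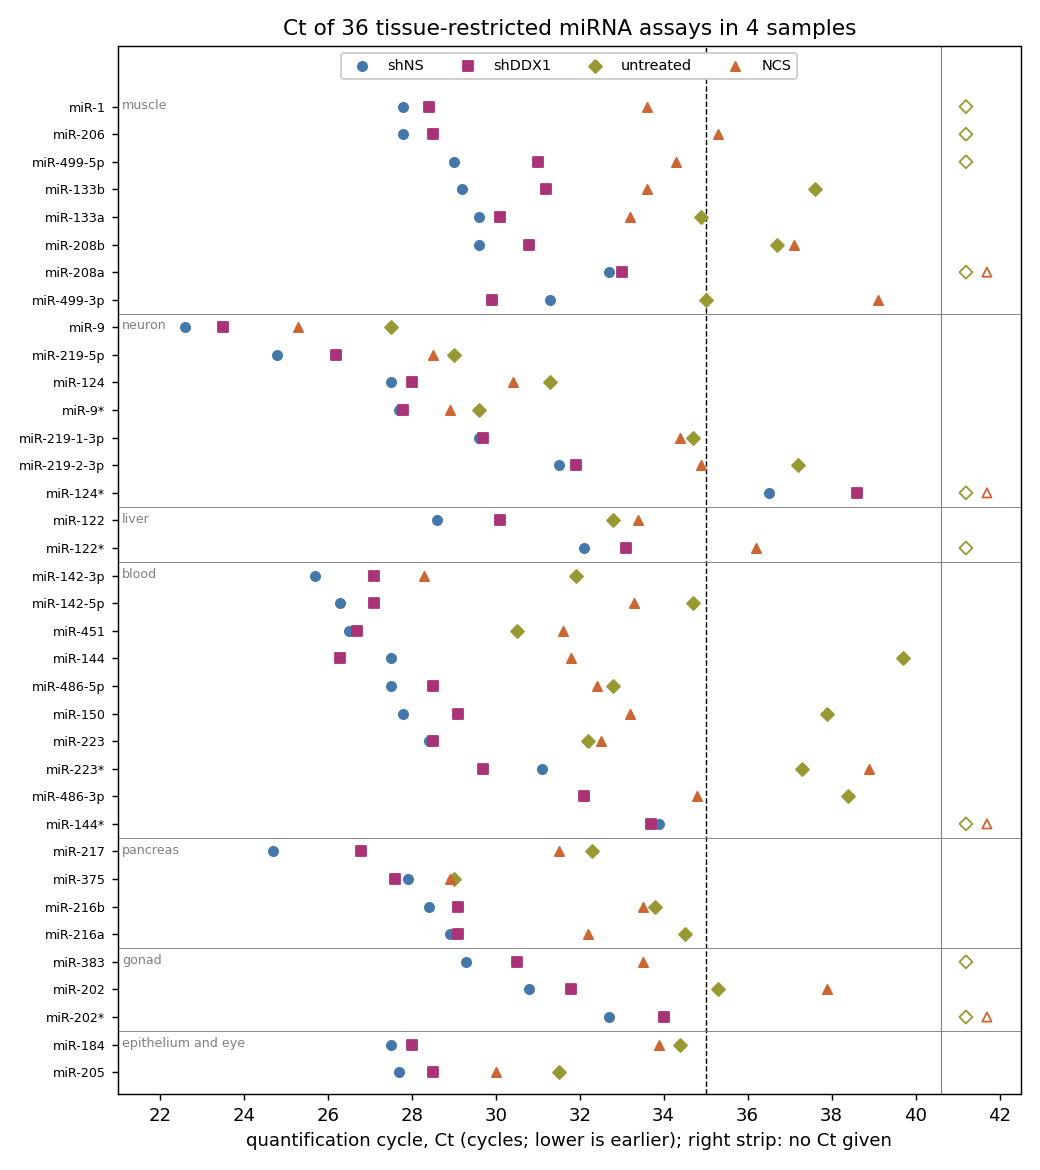
Ct in cycles (horizontal axis, earlier to the left) of all 36 assays by tissue group, with 1 symbol for each of the 4 samples; open symbols in the right strip gave no Ct and the dashed line is Ct 35. miR-9 is leftmost among the members in all 4 samples, and 9 members lie in the strip for untreated cells.

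Opposite arms read later than their guides. Over the 10 opposite arms, 32 values had a Ct for both arms, and the opposite arm was later in 31 of them. The exception was miR-499-3p in shDDX1, 1.1 cycles before miR-499-5p. The distance reached 10.5 cycles for miR-124* in shDDX1, where miR-124* read 38.6. For miR-9* it was 5.1, 4.3, 2.2 and 3.6 cycles, sample by sample. For miR-219-1-3p it was 4.7, 3.5, 5.7 and 5.9, and for miR-219-2-3p 6.7, 5.7, 8.2 and 6.4 behind miR-219-5p. Of the 10 opposite arms, miR-9* alone was under Ct 30 in all 4 samples. All but miR-9* and miR-202* were read on the other panel from their guide, so arm and panel cannot be told apart for those 8.

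**Figure D3:**
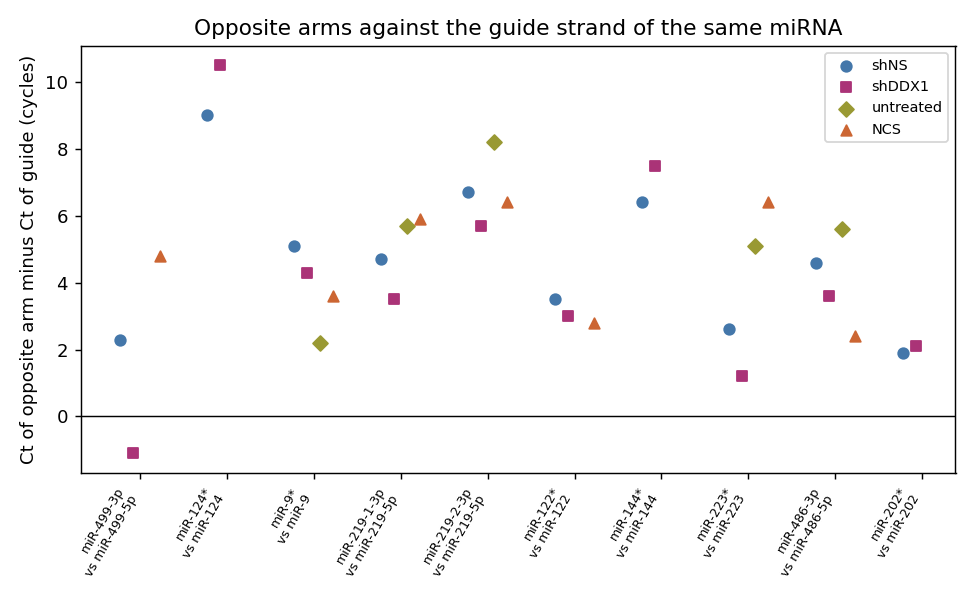
Ct of the opposite arm minus Ct of the guide strand in cycles (vertical axis) for 10 arm pairs in each sample where both gave a Ct; the line at 0 marks equal Ct. The only point under 0 is miR-499-3p in shDDX1, at -1.1 cycles.

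The order of the members was close within the shRNA pair and looser elsewhere. Spearman's correlation of Ct across members was 0.94 between shNS and shDDX1 over 36 members and 0.76 between untreated and NCS-treated cells over 27. Between the control samples, shNS and untreated, it was 0.64 over 27 members, where all assays gave 0.75. Members share plates within a sample, and these values are a description.

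The comparison of shDDX1 with shNS asks whether the tissue-restricted set moves with knockdown of DDX1, whose own level these panels do not read. Ratios were differences of minus Ct after each sample was centred on its mean Ct over assays under 35 in all 4 samples, and 2-fold was the threshold. Of 35 quantified members, 8, or 22.9%, were at least 2-fold lower in shDDX1, where 17.3% of 716 quantified miRNAs were. At least 2-fold higher were 3, or 8.57%, where 11.0% of all were. The median log2 ratio was -0.35 for the members and 0.04 for all. With each panel centred on its own, 5 members were lower and 3 higher, where 15.6% and 7.82% of all were, and the medians were -0.17 and 0.02. The members' counts were thus near the background in either centring.

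The 3 lowest were miR-217, miR-499-5p and miR-133b. miR-217 (chromosome 2, 55983020 to 55983042, minus strand) was 3.4-fold lower in shDDX1, with a log2 ratio of -1.77. miR-499-5p (chromosome 20, 34990408 to 34990428, plus strand) was 3.27-fold lower, at -1.71. miR-133b (chromosome 6, 52148988 to 52149009, plus strand) was 3.11-fold lower, at -1.64. Of these, miR-217 was past 2-fold in all 7 scalings and the others in 6, falling to -0.60 and -0.68 after subtraction of neighbouring wells. The scalings reuse the same wells and are not independent checks. miR-499-5p and miR-133b read later than the earliest water well of their panel, at 27.8 in shNS and 27.3 in shDDX1, and miR-217 read earlier. The part of background signal in these ratios was not tested.

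The other 5 lay close to the threshold. miR-122 was at -1.21, miR-219-5p at -1.11, miR-142-3p at -1.07, miR-150 at -1.01 and miR-202* at -1.01. Just inside 2-fold lay miR-383 at -0.93 and miR-208b at -0.81. None of these 5 was past 2-fold when each panel was centred on its own, whereas miR-208b and miR-122* were then past it, at -1.24 and -1.10. miR-150 was at 0.86 after subtraction of neighbouring wells.

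The 3 higher members were miR-499-3p, miR-223* and miR-144. miR-499-3p was 3.22-fold higher in shDDX1 and miR-223* 3.24-fold, both at a log2 ratio of 1.69, from Ct 31.3 to 29.9 and from 31.1 to 29.7. miR-144 (chromosome 17, 28861548 to 28861567, minus strand) was 2.9-fold higher, at 1.54. miR-499-3p and miR-223* were past 2-fold in all 7 scalings and miR-144 in 6, with 0.87 against the small RNAs. Both miR-499-3p and miR-223* read later than the earliest water well of panel II, at 26.6 in shNS and 26.5 in shDDX1. miR-144 read earlier than that of panel I in both samples.

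Arms and neighbours lay together for some members and apart for others. Both arms were lower for miR-202 and miR-202*, at -0.78 and -1.01, for miR-122 and miR-122*, at -1.21 and -0.67, and for miR-142-3p and miR-142-5p, at -1.07 and -0.50. The arms of the miR-499 hairpin went opposite ways, with miR-499-5p at -1.71 and miR-499-3p at 1.69. miR-223 was at 0.24 beside miR-223* at 1.69, and miR-144* at 0.50 beside miR-144 at 1.54. The arms of miR-122, miR-499, miR-223 and miR-144 were read on different panels, so arm and panel cannot be told apart for them. With each panel centred on its own, miR-499-5p was at -1.29 and miR-499-3p at 1.25. miR-223 and miR-223* were then at 0.66 and 1.26, and miR-144 and miR-144* at 1.96 and 0.06. For miR-122 and miR-122* the values were -0.79 and -1.10. In the chromosome 2 cluster miR-217 was at -1.77, miR-216b at -0.35 and miR-216a at 0.07. miR-133b was at -1.64, while miR-206, from the same locus, was at -0.37 and the near-identical miR-133a at -0.26. miR-1 and miR-133a, which share their transcripts, lay together at -0.30 and -0.26. miR-9, the earliest member, was within 2-fold, at -0.60.

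Assays repeated on both panels gave a scale of technical error. Their spread was taken between the panels, so it includes any offset between panels besides well noise. For the shRNA pair, 7 such assays gave an SD of 0.385 for the log2 ratio before centring. Not all of the 7 are miRNA assays, and whether the spread is the same at late Ct was not tested. Of the 35 members, 14 lay more than 2 such SDs, or 0.77, from 0, which is 40% where all quantified miRNAs had 39.8%. Panel and plate position moved with the ratios. On panel I the members' median was -0.53 and that of all assays -0.42, and on panel II 0.16 and 0.46. In columns 7 to 18 of panel I, 4 of 8 members were lower, as were 76 of 185 assays. The part of plate position in these ratios was not tested beyond these values.

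The comparison of NCS with untreated cells could be made for fewer members, because 18 of 36 were under Ct 35 in both samples. Of these 18, 3 were at least 2-fold lower after NCS and 3 at least 2-fold higher, 16.7% each. Over 498 quantified miRNAs the shares were 22.3% and 16.9%. The median log2 ratio was -0.12 for the members and -0.38 for all. The balance of directions depended on scaling. With each panel centred on its own, the counts became 8 lower and 1 higher and the median -0.79, against -0.20 for all. As shares these were 44.4% and 5.56% of the 18 members, where 20.5% and 13.7% of all miRNAs were lower and higher. Against the small RNAs, 1 was lower and 7 were higher, and the median over all assays stood at 0.40 in place of -0.38. These were 5.56% and 38.9% of the members, where 5.02% and 31.7% of all were.

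miR-142-3p had the highest ratio among the members in this comparison. It was 7.18-fold higher after NCS, with a log2 ratio of 2.84, and 4.12-fold higher with each panel centred on its own. The log2 ratio was 3.58 without centring and 3.63 against the small RNAs. The authors' deposited table gives 34.6-fold, or 5.11, and how its values were shifted is not given in the sources read here. The ratio was past 2-fold in all 7 scalings. The opposite arm of its hairpin, miR-142-5p, was at 0.76. The well of miR-142-3p lies in column 17 of panel I, and in columns 7 to 18 of that panel the median over all 113 quantified assays was 1.21, against -0.15 in the outer columns. After subtraction of neighbouring wells miR-142-3p was at 2.71.

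miR-451 was lowest. It was 3.54-fold lower after NCS, with a log2 ratio of -1.83, or 6.19-fold lower with each panel centred on its own, and was past 2-fold in all 7 scalings. It was at -1.09 without centring and -1.04 against the small RNAs, and 2.13-fold lower by the authors' deposited table. The 7 assays repeated on both panels gave an SD of 0.795 for this pair. With common centring, miR-142-3p and miR-451 lay more than 2 SDs, or 1.59, from 0. They are 11.1% of the 18 members, where 18.9% of all quantified miRNAs did so. That SD was taken before centring, and which members pass it depends on the centring. Without centring miR-451 lay inside 1.59, while miR-142-3p, miR-216a at 2.24, miR-9 at 2.16 and miR-133a at 1.63 lay past it.

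The other 4 members past 2-fold with common centring were past it in fewer scalings, 6 for miR-216a, 5 for miR-9 and 4 for miR-122 and miR-223. miR-216a was 2.85-fold higher, at 1.51, and 0.71 when centred per panel. miR-9 was 2.69-fold higher, at 1.43, and 0.62 when centred per panel. miR-122 was 2.56-fold lower, at -1.36, and miR-223 2.04-fold lower, at -1.03. Both moved further from 0 when centred per panel, to -2.16 and -1.83, while against the small RNAs they were at -0.57 and -0.24. The chromosome 2 neighbours of miR-216a were at -0.39 for miR-216b and 0.07 for miR-217, and miR-9* was at -0.03 beside miR-9.

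A further 9 members were under Ct 35 in 1 sample of the NCS pair only. Of these, 8 were quantified after NCS and not before, and miR-499-3p the other way round, at Ct 34.98 before and 39.09 after. Over all assays the counts were 90 and 20. Set against Ct 35, miR-144 was at least 5.57-fold higher after NCS, or at least 3.19-fold with each panel centred on its own, and miR-150 at least 2.09-fold or 1.2-fold. With common centring the bound was under 2-fold for miR-1, miR-133b, miR-383, miR-499-5p and miR-499-3p, and for miR-219-2-3p and miR-486-3p it gave no fold. With each panel centred on its own, miR-219-2-3p was at least 1.11-fold and miR-486-3p at least 1.27-fold higher. In that centring miR-1, miR-133b, miR-383, miR-499-5p and miR-499-3p gave no fold.

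**Figure D4:**
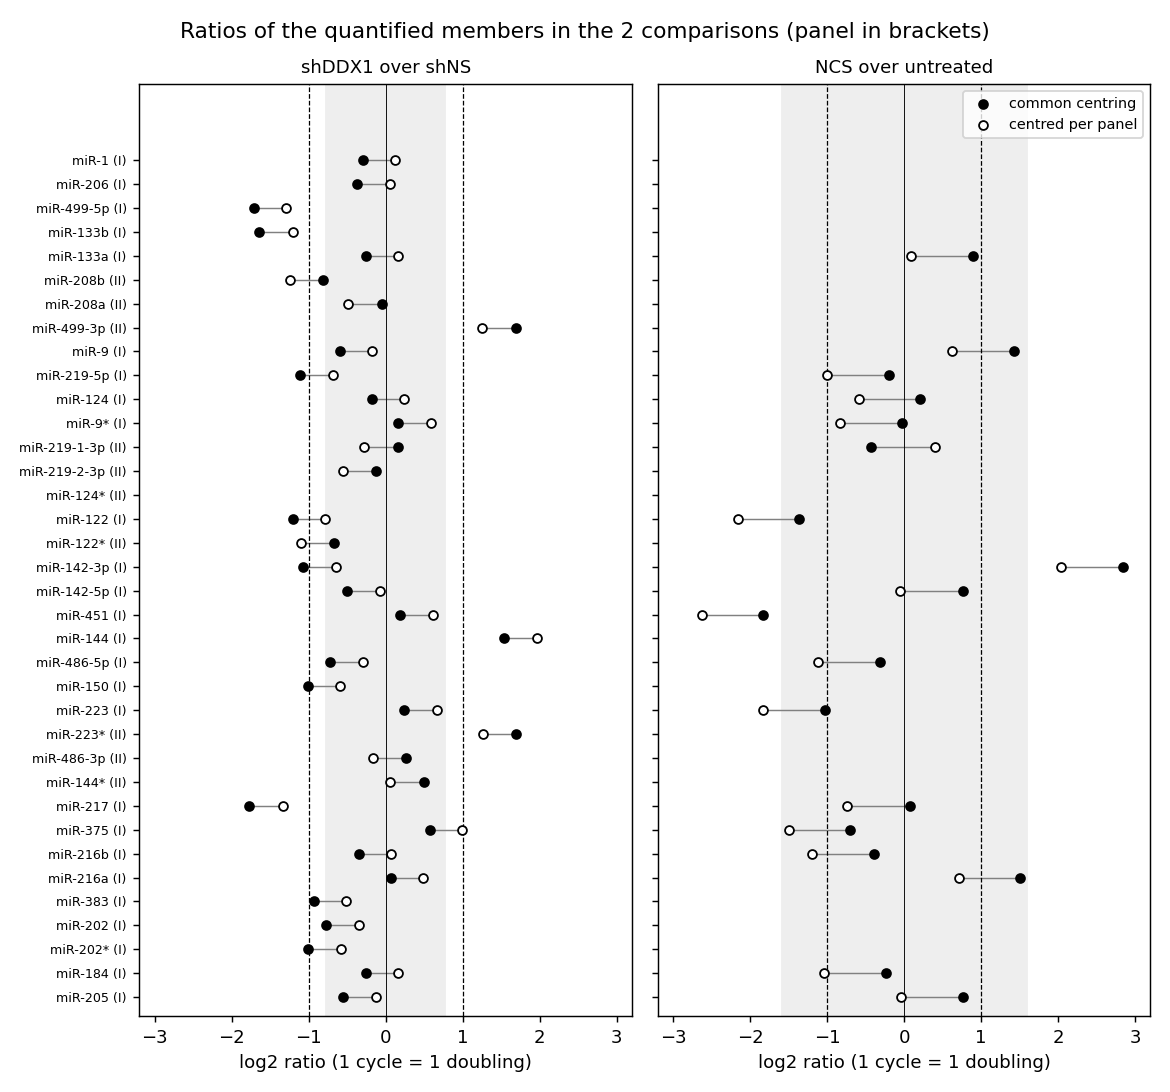
Log2 ratio of each quantified member (horizontal axis) in shDDX1 over shNS and in NCS over untreated cells, with common centring (filled) and each panel centred on its own (open); dashed lines mark 2-fold and the grey band 2 SDs of repeated wells. That SD includes any offset between panels and was taken before centring. miR-499-3p and miR-223* lie at 1.69 and miR-217 at -1.77 in shDDX1, and miR-142-3p at 2.84 and miR-451 at -1.83 after NCS.

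The comparisons use no sample in common. miR-142-3p alone among the members passed 2-fold downward in shDDX1 and upward after NCS, at -1.07 and 2.84, and in shDDX1 it was at -0.65 when each panel was centred on its own. miR-122 was at least 2-fold lower in both, at -1.21 and -1.36. Of the 3 members higher in shDDX1, none was quantified in both samples of the NCS pair.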

How the data were processed

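Mature miRNAs were measured in U2OS total RNA with Exiqon's human 2-panel PCR array, per the labels. The authors deposited 3 tables: Ct per well, shifted Ct, and a linear fold (ratio) of each sample over its control. Not given in the sources used here are the instrument and its threshold. Values came from the Ct table, with the deposited fold and shifted Ct as alternatives. Names starting hsa- were kept (740 wells), and wells of the same assay were averaged, giving 737 assays. Each sample was centred on its mean Ct over the 499 wells under 35 in all 4 samples. There is 1 sample per group, so no test was run. Precision was taken from wells repeated on the plates: calibrators, 3 per plate, varied with an SD of 0.191 cycles. Depth does not apply to Ct values. The scripts (python 3.11.15, pandas 2.3.3) were tested on simulated data. The members, lists, thresholds and alternatives were chosen with earlier results of these data known. Named members are every assay past 2-fold, those with a bound, and each guide strand. Assay names were matched to RefSeq by the arm convention of older miRNA names. A group's bounds use Ct 35 for the reading at or over 35. The 7 scalings are centring on the mean or median, the small RNAs U6, SNORD38B and SNORD49A, no centring, centring per panel, plate calibrators and subtraction of the median ratio in surrounding wells (up to 2 rows or columns away). They rescale the same wells, so a count of scalings is not a count of independent checks.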

Additional observations from a re-analysis of the deposited data

How the results depend on the processing

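No paired analysis was possible because no group held a further sample to pair. Under a limit of Ct 32, 8 members were quantified in untreated cells, 10 after NCS, and 30 in either shRNA sample. All 26 guide strands were quantified in both shRNA samples, 16 without NCS and 22 with it. The median percentile of guide strands alone was 54.8 in shNS, 56.4 in shDDX1 and 65.3 in untreated cells. For all members, ranks within panels gave 72.3 in shNS and 72.0 in NCS-treated cells. For all members, the authors' deposited shifted Ct gave 52.2, 53.6, 53.2 and 46.5, which puts NCS-treated cells on the other side of the middle of the list. The shifted Ct of the NCS pair gives numbers for undetermined wells, which the main ranking placed last.

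Members lower in shDDX1 were 8 of 35. They were 18 against small RNAs (51.4%, and 35.9% of all miRNAs), 5 with centring per panel (14.3% and 15.6%), 5 with plate calibrators (14.3% and 16.6%), 3 after subtraction of neighbouring wells (8.57% and 12.8%), 14 at 1.5-fold (40% and 27.9%) and 0 at 4-fold (6.01% of all). Members higher in shDDX1 were 3, and 0 at 4-fold (1.82% of all). Members lower after NCS were 3. They were 1 against small RNAs, without centring, and by the authors' deposited fold (5.56% each, and 5.02%, 5.82% and 6.43% of all), 8 with centring per panel (44.4% and 20.5%), 1 under Ct 32 (12.5% and 18.4%) and 0 at 4-fold (2.81% of all). Members higher after NCS were 3. They were 7 against small RNAs (38.9% and 31.7%), 6 without centring (33.3% and 28.9%), 1 with centring per panel (5.56% and 13.7%), 6 by the authors' deposited fold (33.3% and 31.3%), 6 at 1.5-fold (33.3% and 22.7%) and 1 at 4-fold (5.56% and 8.23%). The other alternatives kept the counts within 1.5 times. Against small RNAs the median over all assays was -0.63 in shDDX1 and 0.40 after NCS, so those counts shift with the whole plate. The cause of the other changes was not tested. One sample per group limits every ratio, and Ct near 35 limits those of the NCS pair.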
